A study of Homo sapiens with 6 samples.

Results

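Semaphorins, plexins, neuropilins, slits, netrins and their receptors were read as one set of axon guidance genes in H1299 cells with and without Ephexin1 knockdown. The set was proposed with earlier results of these data known, and its members were then taken by symbol, with no threshold on their values: all SEMA, PLXN, NRP, SLIT, ROBO, NTN, UNC5 and DPYSL genes with a family number, together with DCC, NEO1, RGMA, RGMB and CRMP1. Of the 26255 genes listed, 55 were members, and 45 of these were expressed highly enough to be tested.

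Guidance genes were first known from the developing nervous system, where secreted or membrane-bound cues attract or repel growing axons. Semaphorins bind plexins, the secreted class 3 semaphorins mostly through a neuropilin as coreceptor. Slits bind ROBO receptors, and netrins bind DCC, neogenin (NEO1) and UNC5 receptors. Their receptors act on small GTPases and the actin cytoskeleton, which is also the field of Ephexin1, a guanine nucleotide exchange factor that couples Eph receptors to the same GTPases. Carcinoma cells use many of these genes in migration, adhesion and contact with blood vessels.

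H1299 is a lung cancer cell line grown in RPMI-1640 medium with serum. Total RNA of 3 libraries of cells with a control shRNA (shControl) and 3 libraries of cells with an Ephexin1 shRNA (shEphexin1) was sequenced, and both shRNAs were expressed from a pSilencer vector with a U6 promoter. The study describes stably selected knockdown clones, and the names of the shEphexin1 libraries share a stem, so that n = 3 may stand for repeat libraries of 1 clone and p-values then measure only the spread between these libraries. Levels are in FPKM, fragments scaled to the length of the transcript and the size of the library, a scale per length on which genes can be compared, but the read counts behind each value are not part of it and the depth is unknown.

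NGEF, the gene of Ephexin1, had a mean of 13.8 ± 2.36 FPKM in the control cells and 9.504 ± 1.14 FPKM after knockdown (SD, n = 3 per group), with every shEphexin1 library below every shControl library (exact permutation test over libraries, two-sided, p = 0.1, the lowest possible with 3 against 3). This was 0.689 of the control level, with a log2 fold change of -0.53 (SE 0.163, adjusted p = 0.103 by limma), and NGEF was not called. The study itself checked the knockdown in its stable clones, H1299 among them, at the protein level by western blot. With the replicate number as a block the adjusted p of NGEF was 0.00284 by limma, and the difference, under 2-fold, was again not called. This block, here and below, pairs libraries by a pattern seen in these same data, which the labels do not state. Of 8 markers listed for a lung carcinoma line, VIM and CDH2, which mark mesenchymal cells, were expressed in all libraries. Of the epithelial ones, CDH1 was listed at 0, and EPCAM and KRT19 did not exceed 0.220 and 0.185 FPKM in any library. KRT7 was at 0.662 to 2.45 FPKM, KRT8 at 2.65 to 8.44 FPKM and KRT18 at 36.3 to 109.4 FPKM. PTPRC, CD3E and HBB, which mark blood cells, were listed at 0 in all 6 libraries. Of 15 neuronal and neuroendocrine markers, 9 could be tested and 0 were called by limma. MAP2 and SNAP25 (log2 fold changes 0.71 and 0.59) had an unadjusted p of at most 0.05, besides ENO2 (-0.60, adjusted p = 0.0683). Their summed level was 170.3 to 272.8 FPKM in shControl and 137.2 to 211.3 FPKM in shEphexin1. Most of this was TUBB3, at 146.4 to 247.7 and 116.4 to 189.1 FPKM (log2 fold change -0.34), and 11 of the 15 had a mean under 1 FPKM. The summed level of 6 endothelial markers was 0.2899 to 0.6828 FPKM in shControl and 0.8542 to 1.618 FPKM in shEphexin1, with PECAM1, CDH5, KDR, VWF and TEK at 0.280 FPKM or less in every library and most of the sum from CLDN5, and that of 7 fibroblast markers was 0.3959 to 0.6218 against 0.623 to 0.8942 FPKM. The 6 blood cell markers, nearly all of them CD68, summed to 37.95 to 53.63 against 53.51 to 71.13 FPKM. The epithelial keratins KRT8 and KRT18 were lower in every shEphexin1 library (limma adjusted p = 0.0304 and 0.0439), and 0 genes of these lists were called. With the replicate number as a block, KRT8 (adjusted p = 0.00106 by limma) and CLDN5 (0.0154) were called. In that fit KRT18 (0.0002), TUBB3 (0.00142) and ENO2 (0.00231) were lower, and CD68 (0.00169) and VIM (0.0187) higher, all by under 2-fold. An adjusted p of 0.05 or less was reached there by 33.5% of all genes tested. The part of these markers in the results was not tested. Replicate 2 of both groups stood apart from replicates 1 and 3. It was the lowest library of both groups for 22 of the 45 members tested (48.9%) and for 35.7% of all genes tested.

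Ephexin1 knockdown cells had more mRNA of SEMA7A, a GPI-anchored semaphorin that binds integrins and plexin C1, of SEMA3F, a secreted repellent, and of NRP1, a coreceptor of class 3 semaphorins and of VEGF. These 3 members were called differentially expressed, for which limma had to give an adjusted p (Benjamini-Hochberg over all 16020 genes tested) of 0.025 or less with a difference of at least 2-fold. All 3 were higher in shEphexin1, and 0 members were called lower. They were 6.67% of the members tested, where 0.893% of all genes tested were called higher and 0.999% lower. SEMA4B, SEMA3C and NTN4 followed with an adjusted p of 0.05 or less, also higher in shEphexin1. This made 6 of the 45 members tested at this p, all higher, where 431 of the 16020 genes tested were higher. In either direction, 7.01% of all genes tested reached this p. Of the 6, 4 differed by at least 2-fold, where 2.9% of all genes tested did so at this p in either direction. An unadjusted p of 0.05 or less was found for 15 members (33.3%, where 23.3% of all genes tested had one). The other 39 members tested had an adjusted p over 0.05. With the replicate number as a block, 15 members (33.3%) reached this p and 30 did not, where 33.5% of all genes tested reached it in either direction. Of these 15 members, 14 were higher and 1 lower in shEphexin1. The lower one was DPYSL5. The higher ones were SEMA7A, SEMA3F, SEMA3C, SEMA4B, SEMA6B, NRP1, NRP2, PLXNA1, PLXNA3, PLXNB2, PLXNB3, ROBO1, NTN4 and DPYSL2. Of the 16020 genes tested, 2218 were higher and 3156 lower at this p in that fit. In a bulk library, more cells with a transcript and more RNA per cell cannot be told apart.

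SEMA7A measured 0.545, 0.286 and 0.716 FPKM in the control cells, against 3.56, 2.40 and 3.62 FPKM after knockdown. Every shEphexin1 library was over 3 times the highest shControl library. The mean rose 6.19-fold, from 0.516 ± 0.217 to 3.19 ± 0.689 FPKM (SD, n = 3 per group), and the log2 fold change of FPKM + 0.1 was 2.46 (standard error, SE, 0.317, adjusted p = 0.00765 by limma). Per length, the mean level of SEMA7A lay below that of SEMA3D (0.581 FPKM) in the control cells and above that of SEMA4D (2.348 FPKM) after knockdown. Within replicates 1, 2 and 3 the ratio of shEphexin1 to shControl was 6.54, 8.40 and 5.05. SEMA7A spans chr15:74701630-74726299 on the minus strand (GRCh37), and shares no exon bases with another annotated gene.

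SEMA3F measured 1.75, 0.960 and 1.75 FPKM in the control cells, against 7.03, 4.46 and 7.29 FPKM after knockdown. Replicate 2 was the low library of both groups, yet even that shEphexin1 library lay above all of shControl. Within replicates 1, 2 and 3 the ratio was 4.02, 4.65 and 4.17. SEMA3F rose from 1.49 ± 0.454 to 6.26 ± 1.56 FPKM (SD, n = 3 per group), with a log2 fold change of 2.02 (SE 0.288, adjusted p = 0.0111 by limma). The gene spans chr3:50192478-50226508 on the plus strand (GRCh37), and 2.3% of its exon bases are shared with an annotated antisense gene.

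NRP1 measured 1.32, 1.86 and 2.14 FPKM in the control cells, against 6.98, 6.45 and 6.69 FPKM after knockdown. The shEphexin1 libraries lay close together, and replicate 2 did not stand apart. NRP1 rose from 1.77 ± 0.417 to 6.71 ± 0.265 FPKM (SD, n = 3 per group), which is 3.79-fold, with a log2 fold change of 1.89 (SE 0.194, adjusted p = 0.0036 by limma). NRP1 spans chr10:33466420-33625190 on the minus strand (GRCh37), and 4.9% of its exon bases lie opposite another annotated gene.

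The calls of these 3 genes rested on most of the libraries. Without shEphexin1 replicate 1, 0 of the 3 were called, with adjusted p of 0.0494 for SEMA7A, 0.0654 for SEMA3F and 0.0299 for NRP1, and log2 fold changes of 2.37, 1.92 and 1.86. NRP1 alone was called when shControl replicate 1 or shEphexin1 replicate 3 was left out, and without shControl replicate 3, SEMA7A and NRP1 were. Their log2 fold changes stayed at 1.46 or more under all 18 other fits.

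**Figure D1:**
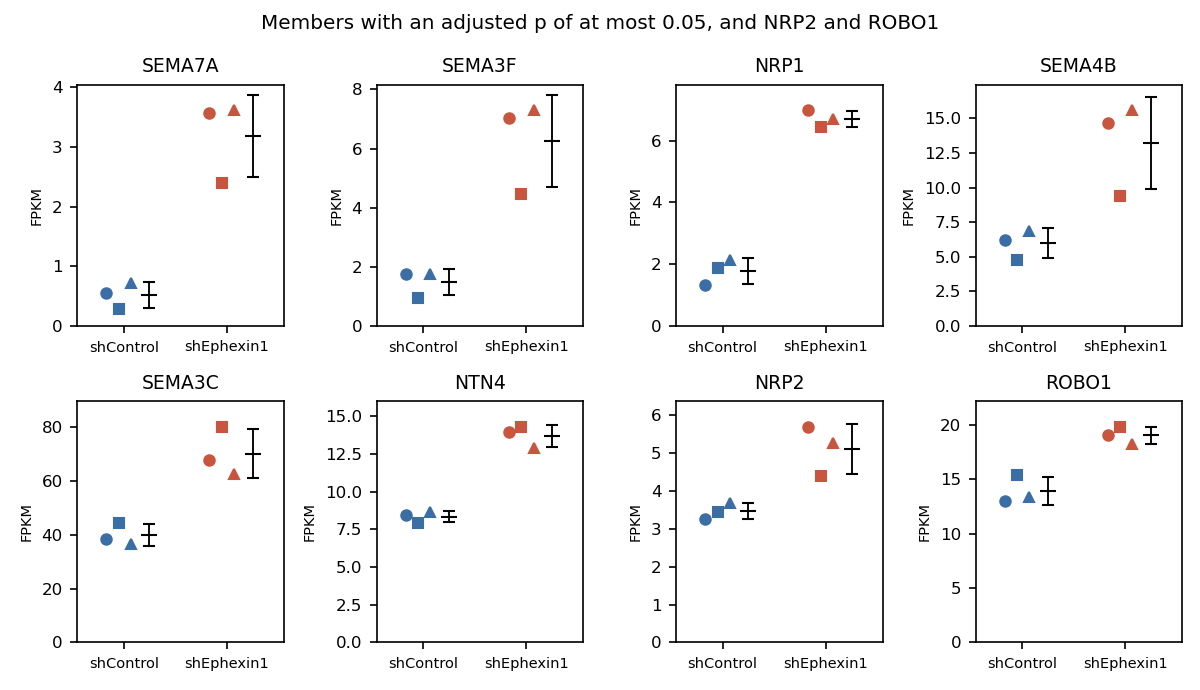
FPKM (linear axes from 0) of 8 guidance genes in each library, with circles for replicate 1, squares for replicate 2 and triangles for replicate 3; bars give the mean and SD of the 3 libraries of a group. All 8 genes have every shEphexin1 library above every shControl library, and the lowest shEphexin1 library is furthest above the highest shControl library, as a ratio, for SEMA7A (0.716 against 2.40 FPKM), SEMA3F (1.75 against 4.46 FPKM) and NRP1 (2.14 against 6.45 FPKM).

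The promoter windows of SEMA7A and SEMA3F are shown because both genes were called higher in shEphexin1. A part of these windows in that difference was not tested. RefSeq promoters on GRCh38.p14, from 250 bases before to 50 bases after a transcription start, were found for 46 of the 55 members, SEMA7A and SEMA3F among them but not NRP1. For a gene with several starts, the one furthest upstream is given, 5′ to 3′, with capitals for each GC box (GGGCGG, the core of the SP1 motif, on either strand, where boxes may overlap). SEMA7A had 2 starts and SEMA3F 3, and which of them these cells use was not tested. The SEMA7A window is chr15:74433909-74434208 on the minus strand and the SEMA3F window is chr3:50154808-50155107 on the plus strand.
SEMA7A: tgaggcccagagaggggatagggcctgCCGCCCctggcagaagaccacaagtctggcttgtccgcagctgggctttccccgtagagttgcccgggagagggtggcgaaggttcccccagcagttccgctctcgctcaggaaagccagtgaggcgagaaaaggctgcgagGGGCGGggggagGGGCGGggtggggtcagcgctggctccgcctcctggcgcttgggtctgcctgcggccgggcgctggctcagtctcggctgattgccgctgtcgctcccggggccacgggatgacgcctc
SEMA3F: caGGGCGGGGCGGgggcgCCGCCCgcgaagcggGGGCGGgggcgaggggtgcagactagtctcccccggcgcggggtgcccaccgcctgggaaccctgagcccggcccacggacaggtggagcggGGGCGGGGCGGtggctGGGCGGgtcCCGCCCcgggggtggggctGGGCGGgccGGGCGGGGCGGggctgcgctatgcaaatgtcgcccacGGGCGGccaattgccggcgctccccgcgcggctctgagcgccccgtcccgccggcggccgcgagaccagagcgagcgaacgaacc
GC boxes were found 3 times in the SEMA7A window and 12 times in the SEMA3F window. At least 1 was held by 45.0% of all 35116 promoters of this length and by 69.1% of the 68 promoters of the members tested. Neither window held a TATA box (TATAAA), an AP-1 site (TGANTCA) or an E-box (CACGTG). Of all promoters 11.5%, 7.7% and 7.3% held these. Among the promoters of the members tested the shares were 1.5%, 2.9% and 5.9%. A CCAAT box (CCAAT, 34.6% of all promoters) was found 1 time in SEMA3F and 0 times in SEMA7A. The windows had a GC content of 70.0% in SEMA7A and 81.3% in SEMA3F, against a median of 58.7% over all promoters.

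Among the other class 3 semaphorins, which are secreted ligands, SEMA3C had the highest level of all members. It measured 38.6, 44.4 and 36.8 FPKM in the control cells, against 68.0, 80.2 and 62.5 FPKM after knockdown. The groups did not overlap, and the mean was 1.76-fold higher in shEphexin1 (log2 fold change 0.81, SE 0.131, adjusted p = 0.0169 by limma), under the fold needed for a call. SEMA3C lies on the long arm of chromosome 7 with SEMA3A, SEMA3D and SEMA3E, within 80371854 to 84816372 (GRCh37). The 393 expressed genes of this arm (mean of at least 1 FPKM) had a median log2 fold change of 0.30, against -0.035 for all 12638 expressed genes. With the arm medians subtracted, SEMA3C had a log2 fold change of 0.51 (limma adjusted p = 0.0741).

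The neighbours of SEMA3C had groups that overlapped. For SEMA3A the ratio of shEphexin1 to shControl within replicates 1, 2 and 3 was 1.21, 1.31 and 1.26. With the replicate number as a block its adjusted p was 0.0521 by limma. SEMA3A, the founding collapsin of growth cones, was at 3.22 ± 0.449 FPKM in the control cells and 4.08 ± 0.719 FPKM after knockdown (SD, n = 3 per group), with a 95% interval of the log2 fold change from -0.097 to 0.75. The log2 fold changes of SEMA3E and SEMA3D were 0.19 and -0.00066, and with the arm medians subtracted SEMA3A, SEMA3E and SEMA3D had 0.026, -0.11 and -0.30. SEMA3F and SEMA3B lie together on the short arm of chromosome 3, whose expressed genes had a median of -0.072. SEMA3B measured 0.667, 0.531 and 0.718 FPKM in the control cells, against 1.11, 0.474 and 0.816 FPKM after knockdown, so that its groups overlapped where those of SEMA3F did not. SEMA3G was under the filter, at 0.183 FPKM or less.

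Class 4 semaphorins are membrane-bound ligands of B and D plexins. SEMA4B measured 6.24, 4.80 and 6.89 FPKM in the control cells, against 14.7, 9.42 and 15.6 FPKM after knockdown. Replicate 2 was again the low library of both groups, and the groups did not overlap. The log2 fold change was 1.11 (SE 0.228, adjusted p = 0.0338 by limma), which missed the call. With the replicate number as a block SEMA4B was called (limma adjusted p = 0.000439), as it was with replicates 1 and 3 alone (adjusted p = 0.00312) with median centring (0.0228) and without shEphexin1 replicate 2 (0.0131), in a range of 0.000263 to 0.141 over all fits.

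The other class 4 members, SEMA4A, SEMA4C, SEMA4D, SEMA4F and SEMA4G, had overlapping groups and log2 fold changes from -0.057 to 0.57. SEMA4C, the most abundant of the class, measured 11.5, 8.62 and 14.3 FPKM in the control cells, against 13.3, 9.73 and 16.2 FPKM after knockdown. Its log2 fold change of 0.19 (SE 0.241, adjusted p = 0.703 by limma) was smaller than the spread between libraries, with a 95% interval from -0.38 to 0.75. With the replicate number as a block the adjusted p of SEMA4C was 0.0559 by limma. SEMA4D, the ligand of plexin B1, had a log2 fold change of -0.052 and a 95% interval from -0.53 to 0.43. SEMA4G shares 22.9% of its exon bases with MRPL43 on the opposite strand, and whether the counting used strand is not given in the sources used here.

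SEMA6B, a transmembrane ligand of A plexins, had the second highest level of a semaphorin. It measured 34.0, 24.5 and 42.3 FPKM in the control cells, against 44.2, 25.6 and 49.7 FPKM after knockdown. The groups overlapped (log2 fold change 0.22, SE 0.289, adjusted p = 0.701 by limma), and the difference between replicate 2 and the other libraries was larger than that between the groups. Within replicates 1, 2 and 3 the ratio of shEphexin1 to shControl was 1.30, 1.04 and 1.17 for SEMA6B. With the replicate number as a block its adjusted p was 0.0466 by limma. SEMA6A, SEMA6C and SEMA6D had log2 fold changes of -0.12, 0.054 and -0.66, and none of these was called. The class 5 semaphorins were near absent. SEMA5B was listed at 0 in every library, and SEMA5A was above 0 only in shControl replicate 1, at 0.00807 FPKM.

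Of the semaphorin receptors, both neuropilins had groups that did not overlap. NRP2, the preferred coreceptor of SEMA3F, measured 3.26, 3.44 and 3.68 FPKM in the control cells, against 5.69, 4.39 and 5.25 FPKM after knockdown. Its log2 fold change was 0.54 (SE 0.150, adjusted p = 0.0777 by limma), so NRP2 was not called. NRP2 was above NRP1 in each shControl library, and NRP1 was above NRP2 in each shEphexin1 library. This order was not tested.

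Plexins are the signalling receptors and carry a GTPase-activating domain for small GTPases in the cell. PLXNB2 was the most abundant, with 26.0, 19.3 and 28.7 FPKM in the control cells, against 40.6, 26.5 and 47.6 FPKM after knockdown. Replicate 2 was the lowest library of both groups, and that of shEphexin1 lay within the range of shControl (log2 fold change 0.61, SE 0.241, adjusted p = 0.187 by limma). Within replicates 1, 2 and 3 the ratio of shEphexin1 to shControl was 1.56, 1.38 and 1.66 for PLXNB2. PLXNA1 followed at 20.3 ± 4.69 and 30.2 ± 7.81 FPKM (SD, n = 3 per group), with a log2 fold change of 0.57, an adjusted p of 0.213 by limma, the same low replicate 2, and ratios of 1.49, 1.44 and 1.52. With the replicate number as a block the adjusted p was 0.00126 for PLXNB2 and 0.000734 for PLXNA1. Neither difference reached 2-fold, and neither gene was called in either fit.

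The remaining plexins were lower in level. PLXNA3, PLXNB3 and PLXND1 had log2 fold changes of 0.58, 0.81 and 0.17, and PLXNB1 one of -0.25. PLXNB3, whose groups did not overlap, was at 0.473 FPKM or less in shControl and at 0.497 FPKM or more in shEphexin1, and 20.4% of its exon bases are shared with SRPK3 on the same strand. PLXNC1, the plexin that binds SEMA7A, measured 1.76, 1.74 and 1.35 FPKM in the control cells, against 1.01, 1.42 and 1.16 FPKM after knockdown. The groups overlapped, and the log2 fold change was -0.41 (SE 0.205, adjusted p = 0.289 by limma), with a 95% interval from -0.89 to 0.073. PLXNA2 was listed at 0 in all libraries, and PLXNA4 did not exceed 0.0317 FPKM.

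**Figure D2:**
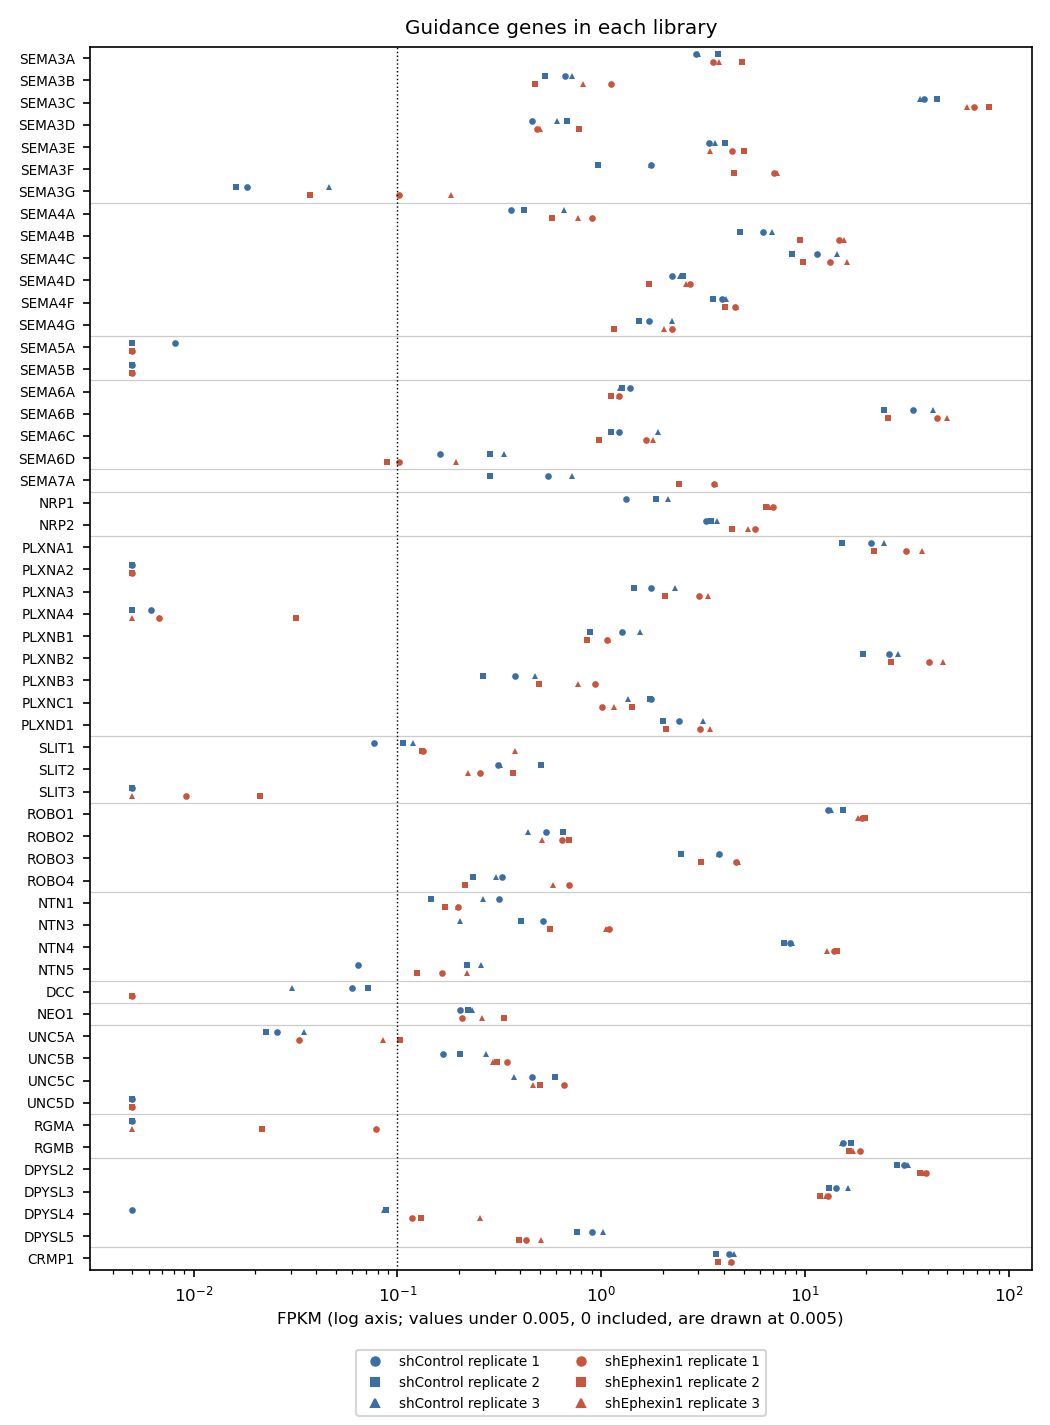
FPKM of the 55 guidance genes in each of the 6 libraries on a log axis, in blue for shControl and red for shEphexin1, with 1 symbol per replicate number, lines between families and a dotted line at the filter of 0.1 FPKM. SEMA3C, SEMA6B, DPYSL2, PLXNB2 and PLXNA1 lie furthest to the right, and values under 0.005 FPKM are drawn at 0.005, where SEMA5B, PLXNA2 and UNC5D, listed at 0 in every library, stand.

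In the slit and ROBO system, ROBO1 had the highest level, and ROBO3 followed at a mean of 3.73 FPKM over the 6 libraries. ROBO2 (0.58 FPKM) and ROBO4 (0.39 FPKM) were near the level of the ligand SLIT2 (0.33 FPKM). ROBO1 measured 12.99, 15.3 and 13.4 FPKM in the control cells, against 19.1, 19.8 and 18.2 FPKM after knockdown. The groups did not overlap, but the difference was 1.37-fold (log2 fold change 0.45, SE 0.114, adjusted p = 0.0598 by limma) and was not called. ROBO2, ROBO3 and ROBO4 had overlapping groups and log2 fold changes of 0.17, 0.30 and 0.53.

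SLIT2 was the slit with the highest level, with 0.310, 0.508 and 0.318 FPKM in the control cells, against 0.253, 0.370 and 0.222 FPKM after knockdown. Its groups overlapped (log2 fold change -0.32, SE 0.294, adjusted p = 0.577 by limma). SLIT1 passed the filter narrowly, with 0.0764, 0.106 and 0.119 FPKM in the control cells, against 0.134, 0.131 and 0.379 FPKM after knockdown. Its groups did not overlap (log2 fold change 0.57, SE 0.384, adjusted p = 0.432 by limma). SLIT3 did not exceed 0.0210 FPKM.

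Among the netrins, NTN4, a laminin-related netrin of basement membranes, measured 8.46, 7.93 and 8.65 FPKM in the control cells, against 13.9, 14.3 and 12.9 FPKM after knockdown. The libraries of a group lay close together and the groups were well apart, in replicate 2 as in the others. The mean was 1.64-fold higher in shEphexin1 (log2 fold change 0.71, SE 0.112, adjusted p = 0.0153 by limma). NTN4 thus passed the p threshold but not the fold. NTN3 measured 0.520, 0.405 and 0.203 FPKM in the control cells, against 1.09, 0.563 and 1.06 FPKM after knockdown. The log2 fold change of 1.09 came with a standard error of 0.364 (limma adjusted p = 0.126), and was not called. NTN1, the classical axon attractant, was at 0.314 FPKM or less (log2 fold change -0.21), and NTN5 at 0.256 FPKM or less.

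The netrin receptors were at low levels. DCC was listed at 0 in the 3 shEphexin1 libraries and at 0.0601, 0.0716 and 0.0305 FPKM in shControl, all under the filter. It lies on the long arm of chromosome 18, whose 123 expressed genes had a median log2 fold change of -0.44. NEO1 measured 0.203, 0.223 and 0.232 FPKM in the control cells, against 0.208, 0.334 and 0.259 FPKM after knockdown. Its groups overlapped (log2 fold change 0.19, SE 0.271, adjusted p = 0.737 by limma).

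The UNC5 receptors mediate repulsion by netrins and are dependence receptors. UNC5C measured 0.458, 0.590 and 0.374 FPKM in the control cells, against 0.655, 0.503 and 0.462 FPKM after knockdown (log2 fold change 0.16, SE 0.255, adjusted p = 0.762 by limma). UNC5B had groups that did not overlap, at 0.214 ± 0.0522 and 0.316 ± 0.0271 FPKM (SD, n = 3 per group), and was not called (limma adjusted p = 0.406). UNC5A reached the filter in 1 library, and UNC5D was listed at 0.

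Repulsive guidance molecules bind neogenin and BMP receptors. RGMB measured 15.4, 16.8 and 15.3 FPKM in the control cells, against 18.7, 16.5 and 17.3 FPKM after knockdown. The log2 fold change was 0.14 (SE 0.109, adjusted p = 0.498 by limma), with a 95% interval from -0.11 to 0.40. Of its exon bases 40.4% lie opposite another annotated gene. RGMA was listed at 0 in shControl and did not exceed 0.0786 FPKM in shEphexin1.

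The collapsin response mediator proteins, encoded by CRMP1 and the DPYSL genes, bind tubulin and act downstream of class 3 semaphorins. DPYSL2 (CRMP2) measured 30.7, 28.3 and 32.2 FPKM in the control cells, against 39.3, 36.6 and 38.3 FPKM after knockdown. The groups did not overlap, and the log2 fold change was 0.33 (SE 0.101, adjusted p = 0.105 by limma). DPYSL5 (CRMP5) was the member with the lowest log2 fold change, with 0.906, 0.758 and 1.02 FPKM in the control cells, against 0.425, 0.393 and 0.509 FPKM after knockdown. The groups did not overlap, but the log2 fold change of -0.87 (SE 0.222, adjusted p = 0.0600 by limma) was not called.

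DPYSL3 (CRMP4), at 14.5 ± 1.63 and 12.5 ± 0.610 FPKM (SD, n = 3 per group), was also lower in every shEphexin1 library, with a log2 fold change of -0.21. CRMP1 was at 4.13 ± 0.434 and 4.15 ± 0.344 FPKM (SD, n = 3 per group), with a 95% interval of the log2 fold change from -0.34 to 0.35. DPYSL4 passed the filter through the shEphexin1 libraries alone, where it was at 0.118, 0.130 and 0.254 FPKM, against 0, 0.0880 and 0.0861 FPKM in shControl (log2 fold change 0.78, SE 0.405, adjusted p = 0.302 by limma).

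Across the members tested, 34 had a log2 fold change above 0 (75.6%) and 11 below, where 48.9% of all genes tested were above 0. The median was 0.22 for the members and -0.0093 for all genes. The groups did not overlap for 14 members that were higher in shEphexin1 (31.1%, where 12.8% of all genes tested were) and for 3 that were lower (6.67%, where 15.4% of all genes tested were). These 3 were DPYSL5, DPYSL3 and SEMA6A. These shares describe the members that passed the filter and were given no test. DPYSL4, counted among the 14, passed the filter only through the shEphexin1 libraries. At the filter, DPYSL4, SLIT1 and SEMA6D lay just inside, where the third highest library of each was at 0.118, 0.131 and 0.193 FPKM, and SEMA3G, UNC5A and DCC just outside, where it was at 0.0462, 0.0346 and 0.0305 FPKM.

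**Figure D3:**
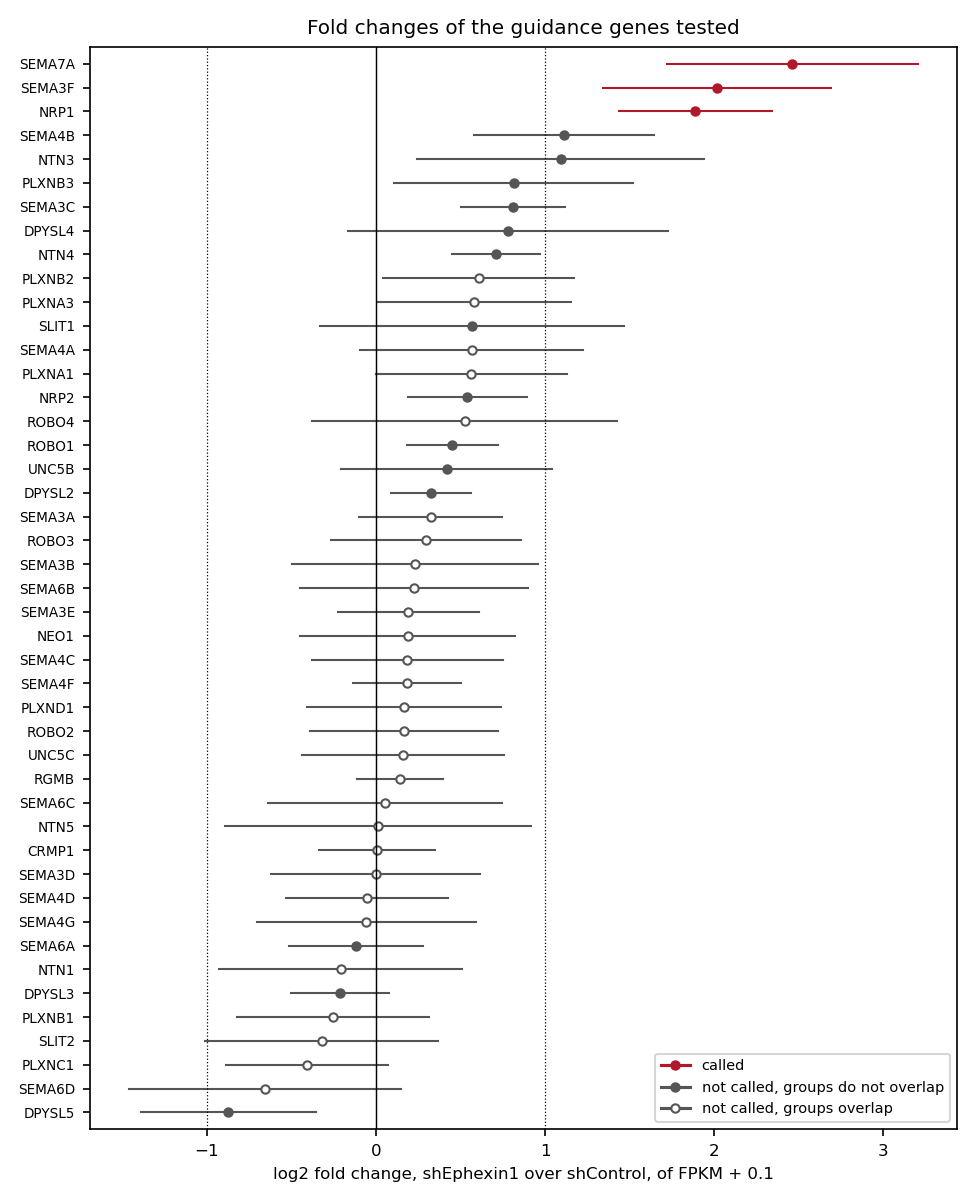
Log2 fold change (shEphexin1 over shControl, of FPKM + 0.1) with its 95% interval from limma for the 45 guidance genes tested; red marks the 3 genes called, filled points groups that do not overlap and open points groups that do, and dotted lines mark 2-fold. SEMA7A, SEMA3F and NRP1 stand at 2.46, 2.02 and 1.89, and DPYSL5 is lowest at -0.87.

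Of 57 further genes of these pathways (GTPases, exchange factors, actin regulators, coreceptors and other ligands), 46 were tested, 1 was called higher and 1 lower, and the median log2 fold change was 0.0041. ABLIM1, an actin-binding LIM protein linked to netrin signalling, measured 5.47, 5.53 and 5.05 FPKM in the control cells, against 2.62, 2.195 and 2.16 FPKM after knockdown. It fell with a log2 fold change of -1.17 (SE 0.144, adjusted p = 0.00672 by limma), and with the arm medians subtracted its log2 fold change of -0.86 was under 2-fold. Its call was also lost without shControl replicate 1 (adjusted p = 0.0554), shControl replicate 3 (0.0301), shEphexin1 replicate 1 (0.0313) or shEphexin1 replicate 3 (0.0328). L1CAM, an adhesion molecule that associates with NRP1, measured 0.0162, 0.0306 and 0.0414 FPKM in the control cells, against 0.514, 0.259 and 0.484 FPKM after knockdown (log2 fold change 1.97, SE 0.333, adjusted p = 0.0190 by limma). L1CAM passed the filter only through the shEphexin1 libraries, and its call was lost in 8 of 17 other fits, with adjusted p up to 0.104, among them those without shControl replicate 1 (0.0906), 2 (0.0467) or 3 (0.0579) and without shEphexin1 replicate 1 (0.104) or 3 (0.0787). The 2 calls made 4.35% of the genes of this list, against 1.89% of all genes tested in either direction.

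NTNG2, a membrane-bound relative of netrins, and LRRC4C, the receptor of netrin G1, differed by over 2-fold with an adjusted p of 0.05 or less, and were not called. NTNG2 was listed at 0 in shControl replicates 1 and 3 and at 0.143 FPKM in replicate 2, and was at 0.555, 0.345 and 0.453 FPKM in shEphexin1 (limma adjusted p = 0.0366). With the replicate number as a block NTNG2 was called (limma adjusted p = 0.0199), as it was without shControl replicate 2 (0.0223). LRRC4C measured 0.225, 0.183 and 0.178 FPKM in the control cells, against 0, 0 and 0.0301 FPKM after knockdown (limma adjusted p = 0.0431), and passed the filter only through shControl. The small GTPases RHOA and CDC42 had log2 fold changes of -0.15 and -0.097, and RAC1 one of -0.68 (SE 0.102, adjusted p = 0.0136 by limma), which is under 2-fold. An adjusted p of 0.05 or less was reached by 9 of the 46 genes, 5 of them higher, and by 7.01% of all genes tested. Those not yet named were MET (0.86), MICAL2 (0.58), MICAL3 (0.54) and DOCK1 (-0.47), all under 2-fold. RAC1 lies on the short arm of chromosome 7, MET on its long arm and DOCK1 on the long arm of chromosome 10. Expressed genes there had median log2 fold changes of -0.25, 0.30 and -0.31.

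**Figure D4:**
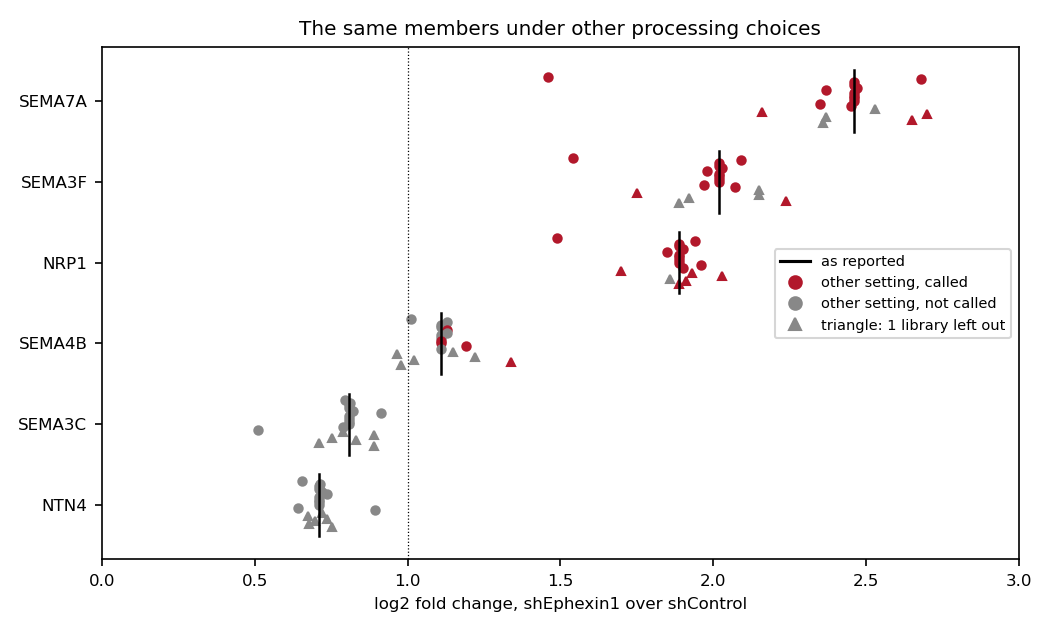
Log2 fold changes of 6 guidance genes under 18 other processing choices, with a black line for the value reported, red for fits in which the gene is called, grey for fits in which it is not and triangles for fits with 1 library left out. The points of SEMA7A lie between 1.46 and 2.70 and those of SEMA3F between 1.54 and 2.24, while SEMA3C and NTN4 stay below 1.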

How the data were processed

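The libraries were stranded total RNA, and the authors mapped reads to GRCh37/hg19 with TopHat2 2.0.13 and computed the deposited FPKM with Cuffdiff (Cufflinks 2.2.1, geometric normalization, pooled dispersion). The gene annotation is not given in the sources used here. All 6 value columns were matched to a group and replicate by library name, and 0 were left out. Read counts were not analysed here, so no counting error is given. Positions come from GENCODE release 44 on GRCh37, and chromosome arms from the longest gap of each chromosome sequence.

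The 16020 genes that reached 0.1 FPKM in 3 or more of the 6 libraries were compared as log2(FPKM + 0.1) with limma 3.58.1 (trend) in R 4.3.3, two-sided, with Benjamini-Hochberg adjustment over all of them. Fold changes on this scale understate those of low genes. Standard errors and intervals are those of the moderated model. The pipeline was tested on simulated data. Python 3.11.15 and matplotlib 3.10.9 were used for sequences and plots.

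Deviations from group means correlated between same-numbered libraries over 12638 expressed genes (r = 0.234, 0.639 and 0.513 for replicates 1, 2 and 3), so the numbers were taken to pair the libraries. Between differently numbered libraries r lay from -0.569 to 0.149, the highest for shControl replicate 3 with shEphexin1 replicate 1, so that replicate 1 was paired least clearly. This pairing is a pattern of the data, and the labels do not state it. The members, the lists and the alternatives were chosen with earlier results of these data known. Full statistics were given for SEMA7A, members with an adjusted p of 0.05 or less, members that did not overlap and differed over 2-fold, and the most abundant member of each family. Genes of the pathway list were named when called, or with a 2-fold difference at this p. RHOA, CDC42, RAC1, MET, MICAL2, MICAL3, DOCK1 and the remaining members were named outside these rules, with fewer values.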

Additional observations from a re-analysis of the deposited data

How the results depend on the processing

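Besides the reported fit, 19 alternatives were run, and 18 of them apply to single genes. The number of guidance genes called was 3 or 4 in all but the fits with a library left out, where it lay between 0 and 4. The 3 genes higher in shEphexin1 kept their direction throughout. With 1 library left out, the 2 calls of the pathway list lay between 0 and 2, and the number of all genes called (303) between 61 and 316. The pathway list gave 0 calls with a pseudocount of 1 FPKM, 1 with a pseudocount of 0.01 FPKM, with a filter of 1 FPKM, with quantile normalization or with arm medians subtracted, and 4 when an adjusted p of 0.05 was enough. Over all genes a pseudocount of 1 FPKM gave 139 calls, the replicate block 556, a term for replicate 2 gave 564, and a p threshold of 0.05 gave 464. The replicate block added SEMA4B, NTNG2, KRT8 and CLDN5 to the genes called and changed no other call among NGEF, the members and markers tested, ABLIM1, L1CAM and LRRC4C. The median log2 fold change of the members lay between 0.165 and 0.37 with 1 library left out and was 0.14 with a pseudocount of 1 FPKM. With a filter of 1 FPKM, 11 of 28 members did not overlap, against 17. Leaving out a library moved the log2 fold change of NGEF between -0.64 and -0.40.

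Of the members near 0, several changed sign, and the cause was not tested. With quantile normalization CRMP1, NTN5 and SEMA6C had log2 fold changes of -0.020, -0.12 and -0.030. With replicates 1 and 3 alone CRMP1, SEMA4D and SEMA4G had -0.0082, 0.18 and 0.11. With arm medians subtracted SEMA3E, SEMA4D and SEMA4G had -0.11, 0.027 and 0.25. A pseudocount of 1 FPKM gave -0.0091 for NTN5 and 0.0023 for SEMA3D, and median centring gave 0.010 for SEMA3D. With 1 library left out the ranges were -0.077 to 0.076 for CRMP1, -0.34 to 0.22 for NTN5, -0.018 to 0.52 for SEMA3B, -0.19 to 0.10 for SEMA3D, -0.0024 to 0.38 for SEMA4C, -0.17 to 0.15 for SEMA4D, -0.23 to 0.22 for SEMA4G and -0.10 to 0.31 for SEMA6C.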
